A study of Mus musculus with 12 samples.

Results

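The vacuolar H+-ATPase (V-ATPase) is the rotary proton pump of lysosomes and endosomes. The 10 mouse genes described here encode subunits of its membrane-embedded V0 sector and accessory subunits: Atp6v0a1, Atp6v0a2, Tcirg1, Atp6v0b, Atp6v0c, Atp6v0d1, Atp6v0e, Atp6v0e2, Atp6ap1 and Atp6ap2. They were chosen by name from the 23479 genes of the expression table, with earlier results of these data known. All 10 have a row, 8 were high enough to be tested, Atp6v0e2 was not, and Atp6v0c was listed at 0 in every library. The RNA came from 1 cultured B cell lymphoma of a C57BL/6 mouse that carries the Eµ-Myc and Eµ-rtTA transgenes, in which the Eµ immunoglobulin heavy chain enhancer drives each transgene in B lineage cells. The source tissue was lymph node, and all cells were grown with interleukin-7 (IL-7). Vector cells had received an empty retrovirus with a puromycin resistance gene. TFEB cells had received the puromycin virus that also carries TFEB-ERT2, in which TFEB with a serine (Ser-211) changed to alanine is joined to ERT2, the altered hormone-binding part of the estrogen receptor. Each line was treated for 4 days with vehicle or with 4-hydroxytamoxifen (4-OHT), the ligand of ERT2 fusions. The dose is 250 nM in the sample labels but is stated per mL, in ng, in the description of the design, and which holds is uncertain. There were 3 replicates in each of the 4 groups, and whether these were separate cultures or transductions is not stated. P-values therefore measure only the spread between these libraries, from 1 lymphoma.

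The V-ATPase has a cytosolic V1 sector that hydrolyses ATP and a V0 sector that carries protons across the membrane. In V0, a ring of proteolipid subunits turns against the a subunit, which holds the proton path and exists as alternative isoforms known to direct the pump to different membranes. The d subunit joins the ring to the rotor of V1, the e subunits are small membrane proteins, and the accessory proteins take part in assembly and traffic of the pump. The pump also acts with the Ragulator complex in the control of mTORC1 at the lysosome. TFEB is a transcription factor of lysosome genes that is known to bind CLEAR elements, which are built on the letters CACGTG, and the serine changed in this fusion is a site through which mTORC1 is known to hold TFEB in the cytoplasm.

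Libraries held 11849029 to 22109283 reads, and 3 reads, the limit that a count of 0 allows, correspond to 2.21 to 4.15 normalized counts depending on the library. The number of genes with any read ran from 11390 to 19250 and varied widely within groups. The first principal component over all tested genes held 42.6% of their variance. On it, library 2 of vector cells in 4-OHT lay at 94.4 against -56.6 and -77.0 for the others of its group. Library 3 of TFEB cells in vehicle lay at 99.1 against 15.3 and -56.9, so counts are also given without this pair. Library 2 of TFEB cells in 4-OHT, at 137 against 49.3 and -23.3, lay furthest out of all 12 libraries. It is covered only by the fits that leave out 1 library. The counts without the pair keep it, and no fit left it out together with the pair. Tfeb, which checks the labels, stood at 223 to 255 normalized counts in vector cells in vehicle and 195 to 238 in 4-OHT, and at 1476 to 1955 in TFEB cells in vehicle and 581 to 711 in 4-OHT. TFEB cells had more Tfeb than vector cells in vehicle (log2 difference 2.77 ± 0.15 SE, limma adjusted p = 2.8e-14) and in 4-OHT (1.58 ± 0.15, adjusted p = 7e-10), and less in 4-OHT than in vehicle (log2 difference -1.33 ± 0.15, adjusted p = 2.49e-08). Counts of Tfeb cannot separate reads of the mouse gene from any reads of the inserted TFEB. All 8 B lineage markers listed were measured and passed the minimum level. Their summed level was 48158 to 57900.5 normalized counts in the 9 libraries outside TFEB cells in 4-OHT and 26169.5 to 27945.5 in that group. Cd79a was the exception to that difference, with a mean of 8859 in TFEB cells in 4-OHT against 7546 in vehicle. Of 12 macrophage and osteoclast markers, 11 were in the table and 9 of these stayed below 50 normalized counts in every library.

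The promoters are shown because several of these genes moved together after 4-OHT and because the letters that TFEB is known to bind can be looked for in them. RefSeq windows from 250 bases before to 50 bases after the transcript start (GRCm38.p6) were matched by symbol for 9 of the 10 genes, Atp6v0a2 being the one not matched. The motif CACGTG, which reads the same on both strands, was present in the windows of 3 of the 9 genes. It was held by 7.15% of all 32851 windows and by 8.09% of the 27025 genes they belong to. The same 3 genes held TCACGTG, searched on both strands and itself containing CACGTG, as did 3.77% of all windows and 4.29% of all genes. None of the 9 held the longer palindromic form of the CLEAR motif, CACGTG with fixed flanking bases on each side. It was held by 0.326% of all windows and 0.37% of all genes. In the lines below, each covering bases -85 to 15 around the transcript start, capitals mark CACGTG, and Atp6ap2 and Atp6ap1 are given as windows without a match beside those with one.
Atp6v0b, chr4:117887315-117887414, minus strand: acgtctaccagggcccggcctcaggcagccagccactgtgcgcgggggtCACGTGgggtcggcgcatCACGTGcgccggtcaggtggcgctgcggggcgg
Atp6v0d1, chr8:105566050-105566149, minus strand: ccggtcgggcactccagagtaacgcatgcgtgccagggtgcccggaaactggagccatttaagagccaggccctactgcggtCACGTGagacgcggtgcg
Atp6v0e, chr17:26676311-26676410, plus strand: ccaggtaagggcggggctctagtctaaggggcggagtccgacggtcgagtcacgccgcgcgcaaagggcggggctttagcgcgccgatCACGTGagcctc
Atp6ap2, chrX:12587674-12587773, plus strand: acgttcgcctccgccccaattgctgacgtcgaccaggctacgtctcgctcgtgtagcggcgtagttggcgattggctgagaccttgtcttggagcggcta
Atp6ap1, chrX:74297012-74297111, plus strand: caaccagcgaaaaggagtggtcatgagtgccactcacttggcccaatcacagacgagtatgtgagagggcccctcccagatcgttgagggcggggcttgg
Atp6v0b held the motif at -36 to -31 and again at -18 to -13, that is, upstream of its start. In Atp6v0d1 it spanned the start, from -3 to 3, and in Atp6v0e it lay at 4 to 9, counted from the RefSeq start. With only the 250 bases before the start searched, 1 of the 9 genes, Atp6v0b, held the motif, against 6.86% of all genes and 6.02% of all windows. The RefSeq starts of Atp6v0a1 (101010398) and Atp6v0e (26676396) lie inside these genes as GENCODE draws them, from 101009452 and 26663231, so for both genes other starts are annotated upstream of the window. A match is a description of these letters and not of binding.

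The first question was how V0 and accessory genes responded to 4-OHT in cells that carry the fusion. Of the 8 genes tested, 6 rose in TFEB cells and none fell at an adjusted p under 0.05: Atp6v0a1, Atp6ap2, Atp6v0d1, Atp6v0b, Atp6ap1 and Atp6v0e. Over all 13111 genes tested, 13.7% rose and 13.9% fell by the same rule. In each of the 8 genes the 3 libraries in 4-OHT all lay above the 3 in vehicle, as they did for 19.6% of all tested genes. The median log2 difference was 0.74 for the 8 genes and 0.04 for all tested genes. Each of the 8 exceeded the minimum of 10 normalized counts in all 12 libraries, so none was tested only because it was high in 1 group. These are bulk RNA values, in which fewer cells of a type and less RNA per cell cannot be told apart. The summed B lineage markers were lower in the same 3 libraries. Of 5 plasma cell markers, 4 were in the table. Their sum, nearly all Irf4, was 7083 to 7278 normalized counts in TFEB cells in vehicle and 7243 to 8019.7 in 4-OHT, and 8080.4 to 8852 in vector cells. Prdm1, the regulator that defines plasma cells, was at 52.7, 104.6 and 78.6 in TFEB cells in 4-OHT and at 0 to 30.9 in the other 9 libraries, Sdc1 was at 0 to 24.5 and 0 to 1.71, and Tnfrsf17 was at 0 in TFEB cells in 4-OHT. The part of these markers in the result was not tested.

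Among the a subunits, Atp6v0a1, whose isoform is best known from neurons and their synaptic vesicles, changed most. Its gene lies at 11:101009452-101063719 on the plus strand (GRCm38). In TFEB cells it stood at 397, 289 and 386 normalized counts in vehicle and at 725, 831 and 857 in 4-OHT. In vector cells it stood at 234, 261 and 325 in vehicle and at 258, 228 and 183 in 4-OHT. Every TFEB library in 4-OHT was higher than all 9 others, and the vector groups overlapped. In TFEB cells the gene rose 2.26-fold (log2 difference 1.18 ± 0.18 SE, adjusted p = 6.51e-06), from 357 ± 59.2 to 804 ± 69.7 (SD, n = 3, as for all values after ± below unless marked SE).

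Atp6v0a2, the isoform known from the Golgi apparatus and early endosomes, had the smallest difference of the a subunit genes. It lies at 5:124628576-124724455 on the plus strand. TFEB cells had 814, 729.9 and 813 normalized counts in vehicle and 986, 874 and 1009 in 4-OHT. The 2 groups did not overlap, but the log2 difference of 0.28 ± 0.12 SE (95% interval 0.05 to 0.52) did not pass the test (adjusted p = 0.0691). It passed with total-count scaling, DESeq2 and array weights (adjusted p = 0.0308, 0.0232 and 0.0196). Vector cells had 841, 882 and 955 in vehicle and 775, 914 and 917 in 4-OHT, which overlap. The gene 4930404A12Rik overlaps 12.4% of the bases of its transcript, and no source used here says how reads of shared stretches were counted, so its level is uncertain to that extent.

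Tcirg1 encodes the a isoform that osteoclasts use to acidify bone and that lysosomes of other cells also carry. It lies at 19:3896050-3907133 on the minus strand and was the lowest of the 8 tested genes. TFEB cells had 109.7, 83.2 and 63.6 normalized counts in vehicle and 159, 181 and 180.4 in 4-OHT, without overlap. Vector cells had 62.7, 80.3 and 30.5 in vehicle and 67.6, 75.9 and 22.0 in 4-OHT, where library 3 of both groups was the lowest. The log2 difference in TFEB cells was 1.04 ± 0.45 SE (95% interval 0.13 to 1.96, adjusted p = 0.0854) and did not pass. It passed in 4 of the 26 settings computed, 1 of them the fit without library 3 of the vector cells in 4-OHT (adjusted p = 0.0386). The summed level of the macrophage and osteoclast markers was 160.1 to 261 normalized counts in TFEB cells in vehicle and 96.0 to 164 in 4-OHT. Mrc1, the mannose receptor, made up much of it, at 131 to 165.4 and 23.3 to 42.6. Without Mrc1, a sum chosen after seeing the data, the others came to 20.3 to 129.9 in vehicle and 67.8 to 121 in 4-OHT, which overlap. Csf1r, the receptor that defines macrophages, was at 24.3 to 37.7 in TFEB cells in 4-OHT and at 0 to 20.7 elsewhere. Acp5, of the same list, did not share this pattern. Its means were 41.8 and 43.4 in vector cells and 13.3 and 15.1 in TFEB cells, in vehicle and 4-OHT. The part of these markers in the result was not tested.

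The proteolipid ring is made of many c subunits, encoded by Atp6v0c, and of the related c″ subunit, encoded by Atp6v0b. Atp6v0b lies at 4:117884326-117887333 on the minus strand, and its promoter was the one shown above with a pair of matches. It stood at 1239, 1187 and 1052 normalized counts in TFEB cells in vehicle and at 1882, 2058 and 1822 in 4-OHT. In vector cells it stood at 1386, 1459.8 and 1329 in vehicle and at 1218, 1311 and 1275 in 4-OHT. TFEB cells in 4-OHT were above all other libraries, and TFEB cells in vehicle overlapped vector cells in 4-OHT at the low end. In TFEB cells it rose 1.66-fold (log2 difference 0.73 ± 0.10 SE, adjusted p = 4.94e-07). Atp6v0c (17:24163866-24169702, minus strand) was listed at 0 in all 12 libraries, so nothing can be said of the main ring subunit. Of the 50-base stretches of its transcripts, 27.1% also occur in transcripts of the pseudogenes Atp6v0c-ps1 or Atp6v0c-ps2. Rpl26, a ribosomal protein gene, and Ndufs5, a respiratory chain gene, which all cells are known to use, were likewise listed at 0 throughout, with 44.0% and 21.7% of their 50-base stretches shared with other genes. Whether shared sequence bears on these zeros was not tested.

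Atp6v0d1 encodes the d subunit, the cap that couples the ring to the central stalk, and lies at 8:105524465-105566047 on the minus strand. It stood at 796, 744 and 634 normalized counts in TFEB cells in vehicle and at 1269.8, 1096 and 1283 in 4-OHT. Vector cells had 555, 796 and 682 in vehicle and 605, 515 and 583 in 4-OHT. TFEB cells in 4-OHT lay above all 9 other libraries, and vector cells in vehicle overlapped both other groups. The gene rose 1.68-fold in TFEB cells (log2 difference 0.75 ± 0.13 SE, adjusted p = 5.34e-05).

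Atp6v0e encodes the widely expressed e subunit and lies at 17:26663231-26699647 on the plus strand. TFEB cells had 303, 320.1 and 297 normalized counts in vehicle and 436, 374 and 486 in 4-OHT. Vector cells had 453, 527 and 377 in vehicle and 441, 393 and 401 in 4-OHT. TFEB cells in vehicle formed the low group, below all other libraries, and TFEB cells in 4-OHT overlapped both vector groups. The 1.40-fold rise in TFEB cells (log2 difference 0.48 ± 0.17 SE, adjusted p = 0.0265) was lost on leaving out library 1 or 3 of TFEB cells in vehicle (adjusted p = 0.0589 and 0.0578) or library 1 or 3 of TFEB cells in 4-OHT (adjusted p = 0.0697 and 0.145). Atp6v0e2, its paralog (6:48537615-48541801, plus strand), had 4.42 and 1.57 normalized counts in libraries 1 and 2 of vector cells in vehicle, 4.29 in library 1 of vector cells in 4-OHT, and 0 in the other 9 libraries. These are values of a few reads, and no fold is given.

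The accessory subunits moved with the core of the sector. Atp6ap1, a glycoprotein bound to V0 (X:74297097-74304721, plus strand), stood at 821, 849 and 893 normalized counts in TFEB cells in vehicle and at 1573, 1279 and 1398 in 4-OHT. Vector cells had 995, 1041 and 917 in vehicle and 980.1, 994 and 1209 in 4-OHT. TFEB cells in vehicle were the lowest 3 of the 12 libraries and TFEB cells in 4-OHT the highest 3. The rise in TFEB cells was 1.65-fold (log2 difference 0.72 ± 0.11 SE, adjusted p = 5.77e-06). Atp6ap2, also known as the prorenin receptor (X:12587801-12617049, plus strand), is the other accessory gene. TFEB cells had 470.4, 619 and 431 normalized counts in vehicle and 1088, 1114 and 1104 in 4-OHT. Vector cells had 517, 524 and 537 in vehicle and 574, 667 and 715 in 4-OHT, so these groups did not overlap either. In TFEB cells Atp6ap2 rose 2.20-fold (log2 difference 1.14 ± 0.14 SE, adjusted p = 6.36e-08).

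**Figure D1:**
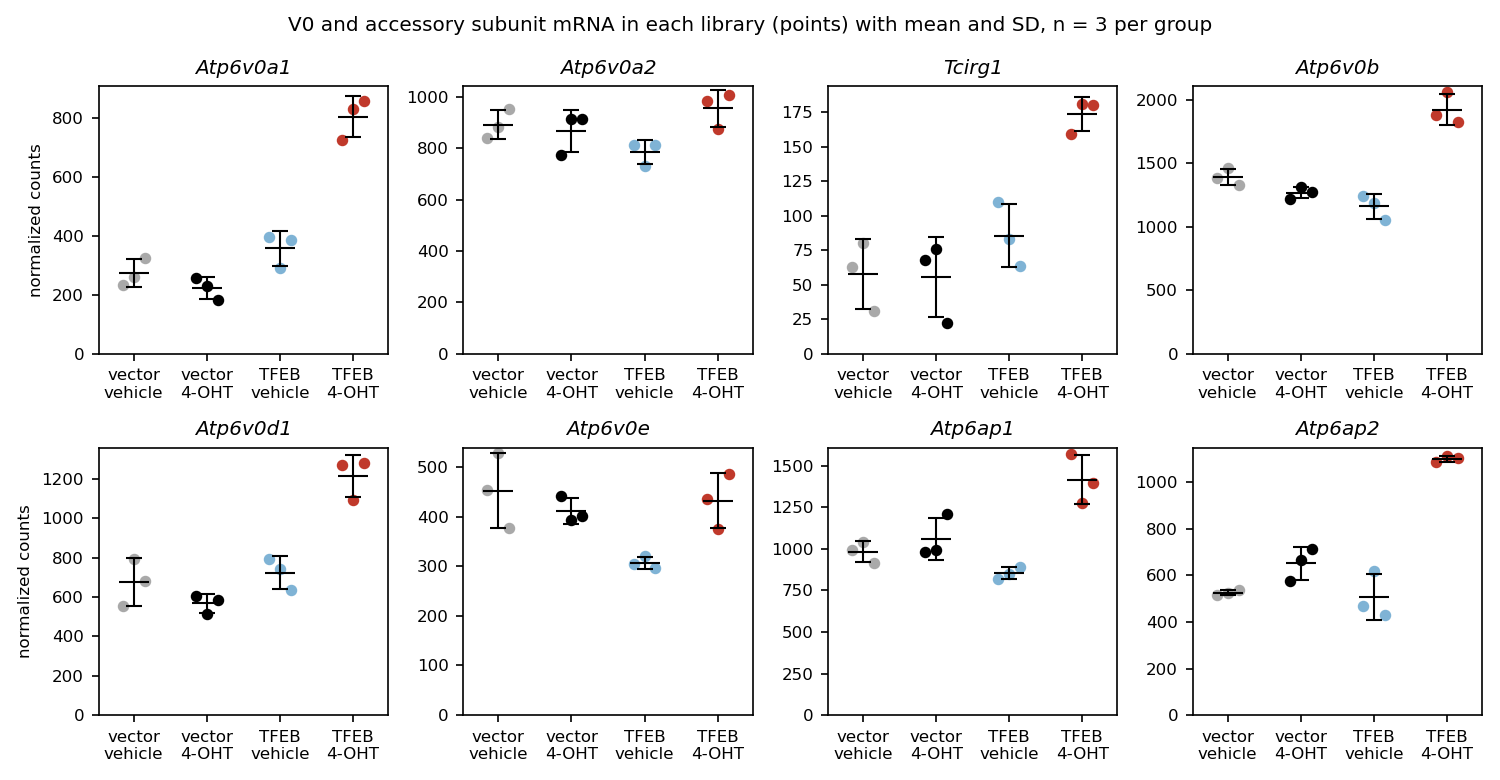
Normalized counts (vertical axes, each starting at 0) of the 8 tested V0 and accessory genes in the 4 groups, with 1 point per library and bars for mean and SD (n = 3). For Atp6v0a1, Tcirg1, Atp6v0b, Atp6v0d1, Atp6ap1 and Atp6ap2 the 3 TFEB libraries in 4-OHT lie above all 9 others, while those of Atp6v0e overlap the vector groups.

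Leaving out the pair of libraries that stood apart left 5 of the 8 genes risen, the lost one being Atp6v0e (adjusted p = 0.0618), and leaving out library 2 of TFEB cells in 4-OHT left 6. The calls of Atp6v0a1, Atp6v0b, Atp6v0d1, Atp6ap1 and Atp6ap2 were made in all 26 settings computed, which include other scalings, edgeR, DESeq2 and the fits that leave out 1 library.

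The vector cells show what 4-OHT did without the fusion. None of the 8 genes passed the test there (limma), and 1, Atp6ap2, had an unadjusted p under 0.05. Among all tested genes 0.0153% passed, 2 genes that were both lower, and 822 had an unadjusted p under 0.05. None of the 8 passed with edgeR or DESeq2, which called 0 and 48 genes in all. The log2 difference of Atp6ap2 was 0.30 ± 0.14 SE (95% interval 0.03 to 0.58, adjusted p = 0.737), with all 3 libraries in 4-OHT above the 3 in vehicle, as in 5.43% of tested genes. Atp6v0b had all 3 libraries in 4-OHT below those in vehicle, as in 5.34% of tested genes, with a log2 difference of -0.13 ± 0.10 SE (adjusted p = 0.904). For the other 6 genes the groups overlapped, with log2 differences between -0.29 and 0.10.

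The difference between the 2 responses was tested as an interaction, the effect of 4-OHT in TFEB cells minus that in vector cells. It passed for 5 of the 8 genes, all with the larger rise in TFEB cells, against 7.75% of all tested genes in that direction and 8.01% in the other. Atp6v0a1 had the largest difference, 1.47 ± 0.26 SE on the log2 scale (adjusted p = 8.47e-05). Atp6v0d1 followed with 0.99 ± 0.19 (adjusted p = 0.000252) and Atp6v0b with 0.86 ± 0.14 (adjusted p = 2.03e-05). The accessory genes had 0.83 ± 0.19 for Atp6ap2 (adjusted p = 0.00207) and 0.62 ± 0.16 for Atp6ap1 (adjusted p = 0.00531). Without the pair of libraries that stood apart, the number was again 5. The rise of Atp6v0e in TFEB cells did not pass the test of its difference from the value in vector cells (0.61 ± 0.23 SE, 95% interval 0.13 to 1.09, adjusted p = 0.0768), although it passed with DESeq2 (0.0176), with array weights (0.0109) and without library 3 of vector cells in vehicle (0.0383), of 25 settings. The differences of Atp6v0a2 (0.32, adjusted p = 0.210) and Tcirg1 (1.19 ± 0.63 SE, adjusted p = 0.246) did not pass.

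**Figure D2:**
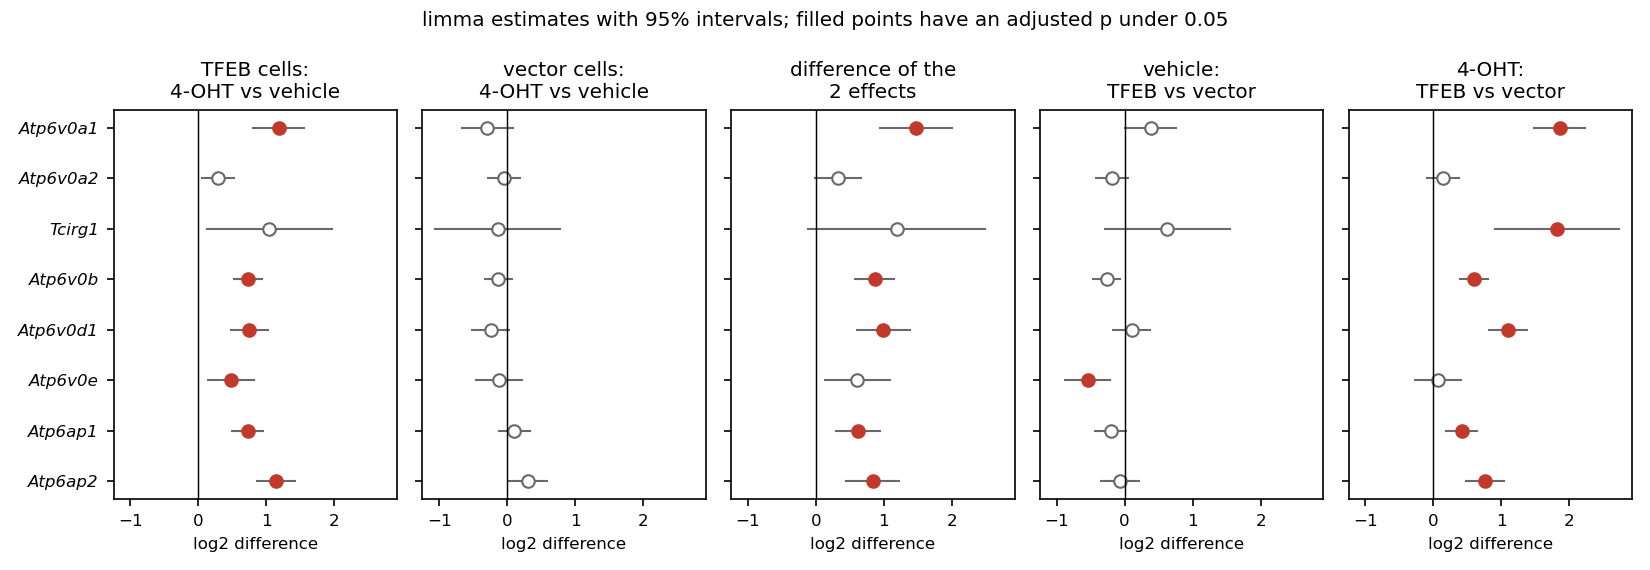
Log2 differences (horizontal axes) of the 8 genes in the 5 comparisons, as limma estimates with 95% intervals, filled where the adjusted p is under 0.05. Filled points lie to the right of 0 for 6 genes in TFEB cells given 4-OHT, for none in vector cells, and for 5 in the difference of the 2 effects.

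The lines were next compared with each other, first in vehicle, where they differ by the inserted virus and no ligand was added. Of the 8 genes, 1 passed, Atp6v0e, which was lower in TFEB cells by 0.55 ± 0.17 SE on the log2 scale (1.46-fold, adjusted p = 0.0477), whereas 2.49% of all tested genes were called lower and 2.89% higher. This call was marginal, as 12 of the 26 settings made it and the adjusted p ranged from 0.00524 to 0.265. It was lost without the pair of libraries that stood apart (adjusted p = 0.104), and in 9 of the 12 fits that left out 1 library, with the highest adjusted p without library 2 of vector cells in vehicle. The 3 fits that kept it were those without library 3 of vector cells in vehicle, library 3 of vector cells in 4-OHT or library 2 of TFEB cells in 4-OHT. In 4 genes, Atp6v0a2, Atp6v0b, Atp6v0e and Atp6ap1, the 3 TFEB libraries all lay below the 3 vector libraries, as in 9.66% of tested genes. Atp6v0b had a log2 difference of -0.27 ± 0.10 SE (adjusted p = 0.118) and Atp6v0a1 one of 0.38 ± 0.18 SE (adjusted p = 0.268). Because the vehicle libraries of TFEB cells serve in this comparison and in that of 4-OHT within TFEB cells, a low value in them enters both.

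With both lines in 4-OHT, 6 of the 8 genes were higher in TFEB cells and none lower, against 13.6% of all tested genes called higher and 13.5% lower. Atp6v0a1 was 3.63-fold higher (log2 difference 1.86 ± 0.18 SE, adjusted p = 1.39e-09) and Tcirg1 3.52-fold higher (1.81 ± 0.45 SE, adjusted p = 0.00219). The size for Tcirg1 was less certain, as its log2 difference ran from 1.26 to 2.13 over the settings and its ratio of group means was 3.14. Library 3 of vector cells in 4-OHT was low for Tcirg1, at 22.0 normalized counts against 67.6 and 75.9. Atp6v0d1 was 2.14-fold, Atp6ap2 1.70-fold, Atp6v0b 1.51-fold and Atp6ap1 1.34-fold higher, with adjusted p between 1.01e-07 and 0.00461. Those 6 calls were made in all 26 settings. The genes that did not pass were Atp6v0a2, with a log2 difference of 0.14 ± 0.12 SE (95% interval -0.10 to 0.38), and Atp6v0e, with 0.06 ± 0.17 SE (95% interval -0.27 to 0.40). For Atp6v0e the change between these comparisons is the interaction given above, which did not pass.

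To compare genes with each other, normalized counts were divided by the length of the longest principal transcript in the GENCODE annotation, giving a level per kb. In vector cells in vehicle Atp6v0b was the highest, at 1392 ± 65.5 per kb. Atp6ap1 followed at 450 ± 28.6 and Atp6v0d1 at 416 ± 74.0, whose libraries overlapped. Atp6ap2 came next at 226 ± 4.45, then Atp6v0a2 at 167 ± 10.8 and Atp6v0e at 161 ± 26.7, which also overlapped, and Atp6v0a1 at 68.2 ± 11.7 and Tcirg1 at 19.0 ± 8.30. In vector cells in 4-OHT the same order held, with Atp6v0b at 1268 ± 46.6 and Atp6v0a1 at 55.6 ± 9.42 per kb. In TFEB cells in vehicle Atp6v0d1 (445 ± 50.6) and Atp6ap1 (390 ± 16.6) changed places, with overlapping libraries. In TFEB cells in 4-OHT, Atp6v0a1 reached 201 ± 17.4 per kb and no longer lay below Atp6v0a2 (179 ± 13.5) and Atp6v0e (154 ± 19.9), although neighbours among these 3 overlapped. Atp6v0b remained first there at 1921 ± 122 and Tcirg1 last of the tested genes at 57.0 ± 4.05. Transcript use in these cells was not measured, and a different isoform would change a gene's place.

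Because Atp6v0a1, Atp6v0a2 and Tcirg1 encode alternatives for 1 position in the pump, their shares of the summed a subunit level per kb were computed in each library. In vector cells Atp6v0a2 held most of the sum, on average 65.7% in vehicle (64.3 to 66.6% over the libraries) and 68.9% in 4-OHT (62.6 to 76.5%). In TFEB cells its mean share was 55.8% in vehicle (53.0 to 57.8%) and 41.0% in 4-OHT (38.0 to 44.1%). The share of Atp6v0a1 was 26.7 ± 2.91% and 23.5 ± 3.83% in vector cells and 33.6 ± 2.70% and 45.9 ± 2.46% in TFEB cells, in the same order. The 3 libraries of TFEB cells in 4-OHT, at 43.3, 48.2 and 46.3%, lay above all others, of which the highest was 35.7%. The difference within TFEB cells was 12.3 percentage points. Its exact two-sided permutation p was 0.1, the smallest that groups of 3 allow (0.229 after Benjamini-Hochberg adjustment over 16 share tests), so the design could not reach the threshold. The summed a subunit level was 254 ± 16.8 and 236 ± 14.8 per kb in vector cells and 264 ± 26.0 and 437 ± 22.7 in TFEB cells, in vehicle and 4-OHT. Tcirg1 held 7.57% to 13.1% in the group means. For the e subunits, Atp6v0e held at least 98.5% of the sum in every library. The order of the a subunits in TFEB cells in 4-OHT depended on the division by length. Without it, the mean share was 49.5% for Atp6v0a2 and 41.6% for Atp6v0a1.

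**Figure D3:**
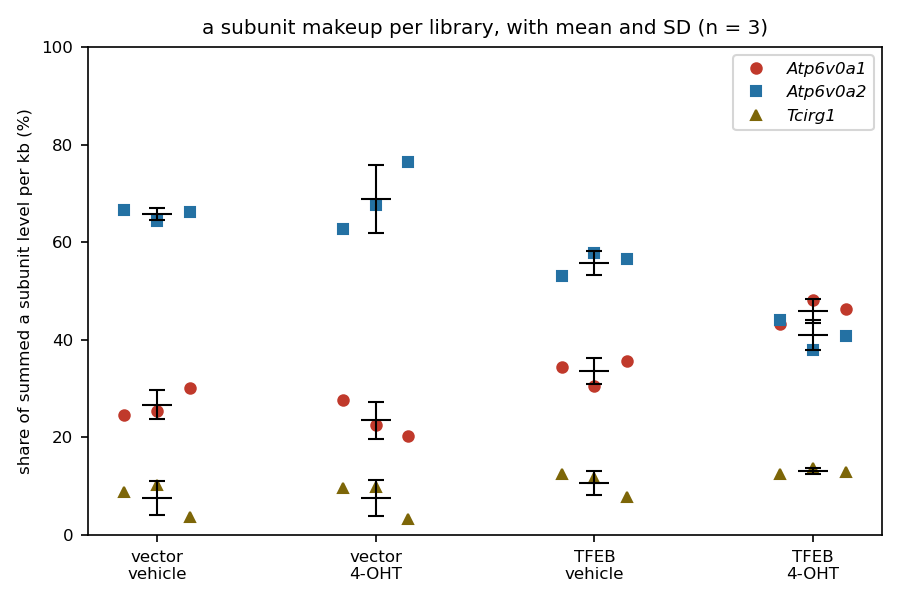
Share of each a subunit gene in the summed a subunit level per kb (vertical axis, percent), with 1 symbol per library in each of the 4 groups and bars for mean and SD (n = 3). Atp6v0a2 lies above Atp6v0a1 in all vector libraries and in TFEB cells in vehicle, and the 2 genes meet in TFEB cells in 4-OHT at 41.0 and 45.9%.

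The remaining genes of the pump and its surroundings were taken from lists set by function, also with earlier results of these data known. In TFEB cells given 4-OHT, 4 of the 10 tested V1 genes (13 listed) rose and none fell, with a median log2 difference of 0.61. These were Atp6v1b2 (log2 difference 1.05 ± 0.16 SE) and Atp6v1a (0.86 ± 0.10), which form the catalytic head, and Atp6v1e1 (0.70 ± 0.12) and Atp6v1d (0.69 ± 0.10), which belong to the stalks. The same 4 passed the interaction. In vehicle, TFEB cells had 2.39-fold less Atp6v1b2 than vector cells (log2 difference -1.25 ± 0.16 SE, adjusted p = 2.2e-06), with means of 302 ± 73.3 and 713 ± 103 normalized counts, and its level in TFEB cells in 4-OHT was 616 ± 19.2. That level was not above the 759 ± 89.6 of vector cells in 4-OHT. The log2 difference between the lines there was -0.30 ± 0.16 SE and did not pass (limma adjusted p = 0.192). The alternative V0 isoform genes Atp6v0a4 and Atp6v0d2 were too low to be tested, at no more than 27.1 and 15.5 normalized counts in any library.

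Of 13 assembly factors and regulators, all tested, 5 rose and 2 fell, with a median of 0.40. Tbc1d24, a TLDc domain protein, rose 3.48-fold (log2 difference 1.80 ± 0.15 SE, adjusted p = 1.64e-11), from 534 ± 107 to 1838 ± 113 normalized counts. Ncoa7, of the same domain family, rose by 0.94 ± 0.14 SE and Rnasek, a V-ATPase-associated membrane protein, by 0.73 ± 0.11. Rogdi, a member of the complex that reassembles the pump, fell by 0.77 ± 0.23 SE (adjusted p = 0.0127), a call lost without library 1 or 3 of TFEB cells in vehicle or library 1 or 2 of TFEB cells in 4-OHT (adjusted p = 0.0536, 0.0821, 0.0553 and 0.0668), or without the pair that stood apart (0.0826). The other 3, named here after their values were seen, were Wdr7 (0.42 ± 0.12) and Ccdc115 (0.41 ± 0.15), which rose, and Oxr1, which fell by 0.71 ± 0.12. The call of Ccdc115 was lost with edgeR (adjusted p = 0.0919), with no trend (0.133), with only the groups compared (0.0719) and without library 1 or 2 of TFEB cells in vehicle (adjusted p = 0.112 and 0.277) or library 2 or 3 of TFEB cells in 4-OHT (adjusted p = 0.0878 and 0.131). Rogdi and Ccdc115 did not pass the limma interaction (adjusted p = 0.118 and 0.158), while the other genes named in this paragraph did.

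Of 12 genes for endolysosomal ion channels and exchangers, 11 were tested, 4 rose and 1 fell, with a median of 0.22. Clcn7, the chloride and proton exchanger of lysosomes, rose 2.47-fold (log2 difference 1.31 ± 0.19 SE, adjusted p = 1.51e-06), and Ostm1, its beta subunit, by 0.60 ± 0.12. Clcn5, an endosomal exchanger, rose by 1.08 ± 0.24, and Clcn3 fell 2.21-fold (log2 difference -1.14 ± 0.10 SE, adjusted p = 8.34e-11), from 4040.2 ± 440 to 1831 ± 252 normalized counts. In vehicle, TFEB cells had more Clcn3 than vector cells, whose mean was 2873 ± 99.6 (log2 difference 0.49 ± 0.10 SE, limma adjusted p = 0.00191). With both lines in 4-OHT, TFEB cells had 1.43-fold less. The fourth riser, Clcn4-2 (0.58 ± 0.17), is named after its value was seen, and its call was lost with no trend (adjusted p = 0.0608) and without library 1 of TFEB cells in vehicle (adjusted p = 0.0803) or library 1 or 3 of TFEB cells in 4-OHT (adjusted p = 0.0813 and 0.0661). Clcn5 and Clcn4-2 did not pass the limma interaction (adjusted p = 0.0738 and 0.292), while Clcn7, Ostm1 and Clcn3 did. Among the 6 genes of Ragulator and Slc38a9, the lysosomal partners of the pump in mTORC1 control, 1 rose, Lamtor1 (0.95 ± 0.19 SE), and none fell, and the median was -0.0047. Lamtor1 passed the limma interaction (adjusted p = 0.0179). In vehicle its mean was 202.5 ± 20.2 in TFEB cells and 279 ± 22.5 in vector cells (limma adjusted p = 0.172). With both lines in 4-OHT its log2 difference of 0.43 ± 0.19 SE did not pass (limma adjusted p = 0.0913). The shares of all tested genes that rose and fell in this comparison are those given above.

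**Figure D4:**
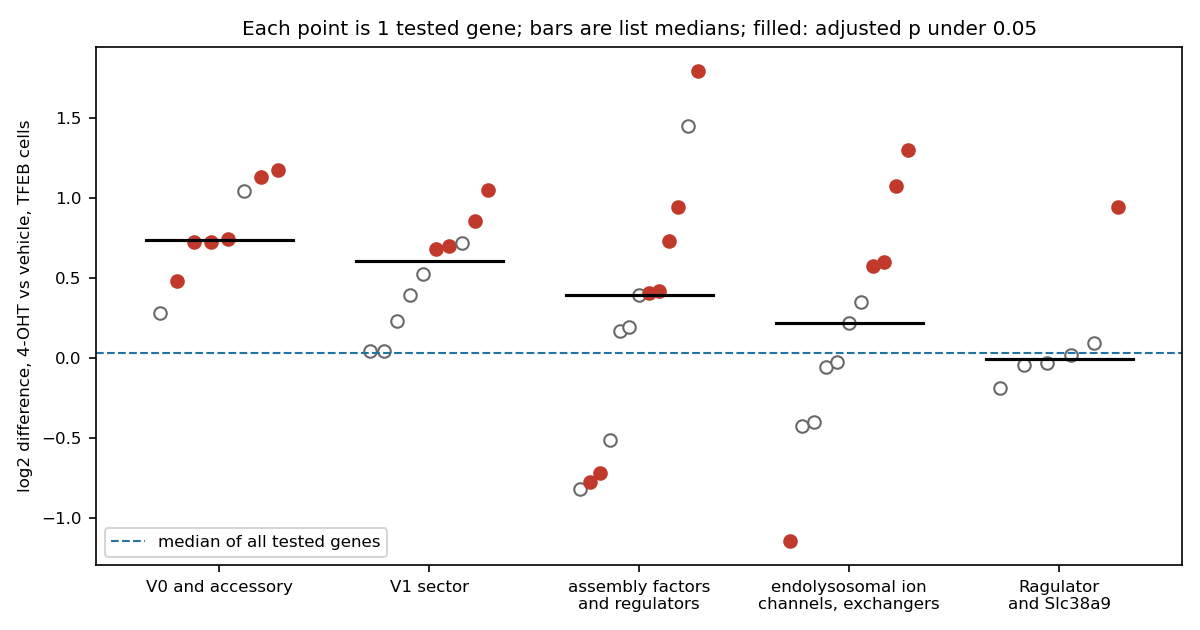
Log2 difference between 4-OHT and vehicle in TFEB cells (vertical axis) for every tested gene of the V0 and accessory group and of 4 related lists, with bars at list medians, a dashed line at the median of all tested genes (0.04) and filled points where the adjusted p is under 0.05. With the deposited scaling the V0 and accessory genes and the V1 genes all lie above 0, and the other 3 lists hold genes on both sides of 0.

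Across the 12 libraries, the 2 genes with the largest log2 differences after 4-OHT were compared with the 8821 tested genes that had a mean of at least 100 normalized counts. The genes most like Atp6v0a1, by Pearson's r of log2 values, were Cst7 (0.984), Syndig1l (0.981), Ccdc88b (0.981), Renbp (0.981) and Cyth4 (0.974). Those most like Atp6ap2 were Gpx1 (0.979), Abi1 (0.971), Usp32 (0.971), Lyl1 (0.966) and Os9 (0.961). Over the 9 libraries outside TFEB cells in 4-OHT, r was 0.862 to 0.926 for the first 5 and 0.801 to 0.932 for the second. Among the V0 and accessory genes themselves, without Tcirg1, whose mean was below that level, Atp6v0d1 and Atp6v0a1 were the most alike (r = 0.916), then Atp6ap1 and Atp6ap2 (0.888), and Atp6v0e and Atp6v0a1 the least (0.013). The points share libraries and groups, so these values describe the pattern over the 4 groups and carry no test.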

How the data were processed

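Total RNA of 12 cell samples was sequenced after libraries were built with NuGEN's Ovation kit for mouse RNA (per the labels' protocols). The deposited table gives 1 signal per gene and library: read counts that the authors divided by 1 size factor per library, called normalized counts here. This reading rests on the values: every value above 0 was, within 0.001, a whole multiple of the value of 1 read (100%), so whole reads could be recovered. The submitters' processing notes name the build mm10 and the tools HTSeq 0.6.1, STAR 2.5.3 and DESeq2 1.6.3. Not given in the sources used here are their roles, the annotation and the handling of strand and shared reads.

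The 13111 genes that reached 10 normalized counts in 3 or more libraries were tested with limma 3.58.1 (R 4.3.3) on log2(value + 1), with 1 mean per group over all 12 libraries, a variance trend and Benjamini-Hochberg adjustment over all tested genes at 0.05. Fold changes are on that scale. The added 1 shrinks changes of low genes, but a single low library can enlarge them. For Tcirg1 between the lines in 4-OHT, the fold was 3.52 and the ratio of means 3.14. On the recovered reads, edgeR 4.0.16 called 3400 genes in TFEB cells given 4-OHT, where limma called 3611, and DESeq2 1.42.0 called 4146. Other alternatives changed the pseudocount, filter, scaling, weights, trend and libraries. The code was tested on simulated data. Between replicates, chi-square per degree of freedom was 7.88 to 25.5, so libraries differed by more than counting error. Floors cover counting error only. Shares were compared by exact permutation tests (scipy 1.17.1). All 10 genes are described, and up to 4 called genes per list are named by size of change, with 4 more named after their values were seen. The genes and lists were chosen with earlier results of these data known. Protein sequences were not used here.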

Additional observations from a re-analysis of the deposited data

Results flagged for a closer look

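The response to 4-OHT differed between the lines for 5 of the 8 tested V0 and accessory genes, by a test of the difference itself (limma interaction, adjusted p under 0.05). The effect in TFEB cells exceeded that in vector cells by 1.47 on the log2 scale for Atp6v0a1, by 0.99 for Atp6v0d1, by 0.86 for Atp6v0b, by 0.83 for Atp6ap2 and by 0.62 for Atp6ap1. All 5 calls were made in each of the 25 settings in which the interaction could be fitted, and adjusted p went up to 0.00635, 0.0162, 0.00219, 0.0229 and 0.0352 in that order.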

How the results depend on the processing

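Over 200 combinations of gene and alternative for each comparison (192 for the interaction), the 8 genes kept direction and side of the threshold in 188 for 4-OHT in TFEB cells, 196 in vector cells, 189 for the interaction, 181 for the lines in vehicle and 199 for the lines in 4-OHT. With 1 library left out, 5 to 7 genes passed in TFEB cells (6 in the fit reported), 0 in vector cells, 5 to 6 in the interaction, 0 to 1 between the lines in vehicle and 6 between them in 4-OHT. In vehicle, the count of 1 became 0 with no filter, with no trend, with only the groups compared and without the pair of libraries that stood apart, and 2 with DESeq2 or array weights. All genes passing there numbered 705, against 1214 with DESeq2, 1125 with array weights, 259 with no trend, 352 with only the groups compared and 433 to 824 with 1 library left out. In vector cells the 2 genes passing became 0 with a pseudocount of 0.5, a minimum of 50, upper-quartile scaling, edgeR, no trend or only the groups compared, 48 with DESeq2 (14 higher and 34 lower), 42 with array weights, 61 without the pair and 0 to 55 with 1 library left out. The cause of these changes was not tested.

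Signs changed only for differences that did not pass. With 1 library left out, the log2 difference ran from -0.084 to 0.038 for Atp6v0a2 and from -0.54 to 0.41 for Tcirg1 in vector cells, the sign turning without library 3 in vehicle (0.0077) or 1 in 4-OHT for the first gene, and without library 2 in vehicle (0.14) or 3 in 4-OHT for the second. Between the lines in vehicle it ran from -0.030 (without vector library 1) to 0.23 for Atp6v0d1 and from -0.22 to 0.037 (without TFEB library 3, and 0.037 also without the pair) for Atp6ap2. Between the lines in 4-OHT it ran from -0.025 (without TFEB library 3) to 0.16 for Atp6v0e. The longer CLEAR motif was found for 0 of the 9 genes with either window.

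With the replicate number as a block, 6, 0, 5, 0 and 6 of the 8 genes passed in the 5 comparisons. The gene lost was Atp6v0e between the lines in vehicle (adjusted p = 0.0555). No regular pairing by replicate number was seen: deviations of same-numbered libraries correlated at -0.543 to 0.671 over 18 pairs, with 4 above 0.1, and 3 of 12 libraries correlated best with their own number. Whether same-numbered samples were handled together cannot be told from these values. No other call on the 8 genes changed with the block. Atp6v0e2 had at most 4.42 normalized counts, in a library where the limit that a count of 0 allows is 2.21. It was too low to be tested, so no difference was looked for.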
